A study of Saccharomyces cerevisiae with 12 samples.

Results

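Tandem intergenic regions lie between neighbouring genes that are transcribed in the same direction, so that the end of the first gene faces the start of the next. They were taken from the authors' list of 4532 intergenic regions of Saccharomyces cerevisiae by strand alone: the systematic names of the left and right genes both ended in C (Crick strand) or both ended in W (Watson strand). Of 2203 such regions, 111 lay within 30000 bp of a chromosome end and were left out, which kept 2092 regions, 1019 between Crick genes and 1073 between Watson genes. Below, the gene whose start borders the region is called the served gene, and the gene whose end borders it is called the neighbour. Each region carries the names of both genes, left first. Divergent regions (1103, with a gene start on each side) and convergent regions (1104, with a gene end on each side), chosen by the same rule on chromosome ends, served as comparison classes.

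Ty5, a retrotransposon that integrates where the chromatin protein Sir4 sits, was used as a calling card: a factor fused to Sir4 draws Ty5 to the places where the factor is bound. Ty5 also inserts elsewhere, so insertions are compared with a background set. There were 12 libraries, 1 for each of 12 groups, so no group had a replicate. Tests of a region or of a class share compare 1 library with another or with a background set of insertions, and 3 tests run over all 12 libraries. Per the labels, a single clone of each strain carried a plasmid with the factor joined at its C-terminus to Sir4, and a barcoded Ty5 with HIS3 on another plasmid under the GAL1/10 promoter. Cells stood 3 days on galactose, 2 days on YPD and 3 days on plates that lacked histidine and held 5-FOA. All strains were sir4D. The full-length factors were Cbf1 (in sir4D cbf1D cells), Tye7 (sir4D tye7D), and Gcr1, Gcr2 and Cst6 (sir4D only). The forms of Cbf1 reduced to its basic helix-loop-helix domain with leucine zipper (Cbf1 bHLH-ZIP), to the same domain with the basic region of Tye7, or to the domain without the zipper (Cbf1 bHLH) were carried by sir4D cbf1D cells. So were the bHLH domain of the mammalian clock factor NPAS2 and that domain with the zipper of Cbf1 attached. Tye7 was also expressed from the TEF1 promoter (TEF1p-Tye7) in sir4D cells and in sir4D gcr2D cells (TEF1p-Tye7 gcr2D). The strain was BY4741 except for the Cbf1 bHLH-ZIP with Tye7 basic region, which was in BY4742, so in that comparison basic region and strain cannot be told apart.

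A promoter in yeast lies just before the start of its gene, and in a tandem region only the served gene is expected to read it. That makes a tandem region the simplest place to assign a bound factor to a gene. Cbf1 binds the E-box CACGTG and is known for the methionine and sulfate genes and for centromeres. Tye7, another bHLH factor, and Gcr1 with its partner Gcr2 are known activators of the glycolytic genes, and Cst6 is a leucine zipper factor of the ATF/CREB kind.

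The description of a tandem region as holding a single promoter was checked against RefSeq gene models of the assembly R64, through gene order only, because no source used here states the build of the deposited coordinates. Between the named left and right genes of 1624 tandem regions no other gene was annotated. In 468 regions (22.4%) at least 1 other gene was annotated: a protein-coding gene in 386, a tRNA gene in 90 and a snoRNA gene in 31. These regions were longer, with a median of 1771 bp against 389.5 bp. For them the single-promoter description does not hold, and the results are given for both kinds where they differ. The median length of all tandem regions was 459 bp (range 2 to 4938), against 610 bp in divergent and 263 bp in convergent regions. The tandem regions just inside the 30000 bp limit were PCC1-ESL2 (30039 bp from the end), ATP15-MDL2 (30266 bp) and RPL2A-RPL29 (30333 bp), with at most 0.0828%, 0.00779% and 0.0662% of the intergenic insertions of any library. Those just outside were RPL29-QCR6 (29265 bp), ATF1-RDR1 (28986 bp) and KAR4-SPB1 (28935 bp), with at most 0.0467%, 0.0828% and 0.0350%.

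Intergenic insertions ran from 2415 in the NPAS2 bHLH library to 37782 in Cst6. The background set held 66271 intergenic insertions for 9 libraries and 53808 for Gcr1, Gcr2 and Cst6. The list of insertions of a library is made of 1 to 6 sorted blocks (35 in all), called runs here, which show the spread inside a library and are no replicates. The median number of reads behind a tandem insertion was 3 to 16 per library. Positions listed more than once made up 0.167% (NPAS2 bHLH) to 27.2% (Gcr1) of the tandem insertions. All percentages are shares of the intergenic insertions of a library, and intervals are exact 95% intervals that cover counting error only.

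Tandem regions took 48.1% of the background insertions for the 9 libraries and 47.6% for the other 3, at 2.81 and 2.78 insertions per kb per 10000 intergenic insertions. The libraries fell on both sides of that level. Cst6 (36.9%), Cbf1 (38.7%), Cbf1 bHLH-ZIP (37.7%) and its form with the Tye7 basic region (36.6%) were low, at 2.14 to 2.26 insertions per kb. The ratio to background was 0.775 for Cst6 (interval 0.759 to 0.791) and 0.804 for Cbf1 (0.787 to 0.822). It was 0.785 for Cbf1 bHLH-ZIP (0.756 to 0.815) and 0.761 for the basic-region form (0.731 to 0.792). Cbf1 bHLH, which lacks the zipper, lay much closer to the background at 46.6% and a ratio of 0.969 (0.949 to 0.989).

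The factors of glycolysis were at or above the background level instead. Tye7 placed 50.1% of its insertions in tandem regions (ratio 1.04, 1.02 to 1.07), Gcr1 51.4% (1.08, 1.05 to 1.11) and Gcr2 51.2% (1.08, 1.05 to 1.10). TEF1p-Tye7 placed 52.5% there with GCR2 (1.09, 1.06 to 1.13) and 47.3% without it (0.985, 0.951 to 1.02). NPAS2 bHLH stood at 49.7% (1.03, 0.975 to 1.10), and with the Cbf1 zipper at 57.3%, a ratio of 1.19. Without its 10 fullest regions that library fell below background, at -0.11 on the log2 scale. With positions within 5 bp merged it stood at -0.014 and Gcr2 at -0.0040. The 57.3% was the highest of the 12, and 10 regions held 74.7% of its tandem insertions, against 7.10% in Cbf1 bHLH and 4.0% in the background. Merging, here and below, kept only positions more than 5 bp beyond the listed position before them. A chain of close positions of any length was thus counted once, which lowers the counts of densely filled regions most.

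These small excesses depended on which tandem regions were counted, in a split chosen after the values were seen. Over the 1624 regions with no gene between, the ratio of Tye7 was 0.945, of Gcr1 0.874, of Gcr2 0.851 and of TEF1p-Tye7 0.926, all below 1. Over the 468 regions with a gene between, the same libraries reached 1.18, 1.38, 1.41 and 1.33. Of the 11 tandem regions before the start of a glycolytic gene, 6 have a gene between. With these 11 left out of the counts and the totals, also a choice made after the values were seen, the ratio over all other tandem regions was 0.926 in Tye7, 0.875 in Gcr1, 0.882 in Gcr2 and 0.808 in TEF1p-Tye7. With a gene between it was then 1.01 in Tye7 (0.965 to 1.05), 1.05 in Gcr1 (1.00 to 1.09), 0.956 in Gcr2 (0.920 to 0.992) and 0.865 in TEF1p-Tye7 (0.810 to 0.923). With the insertions of the 11 kept in the totals, Tye7 and Gcr1 also lay below 1 there, at 0.906 and 0.873. NPAS2 bHLH with Cbf1 ZIP showed the opposite order, 1.41 with no gene between and 0.886 with one. The 1.41 rests on few regions: ATG41-RPL36B alone held 557 of the 1139 insertions, and the 10 fullest regions held 85.5%. Cbf1 was equally low in both kinds, at 0.803 and 0.806. The deficit of Cst6 was larger where no gene lay between, at 0.675 against 0.923. SCM4-YGR054W alone held 1414 of the 6704 Cst6 insertions with a gene between.

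**Figure D1:**
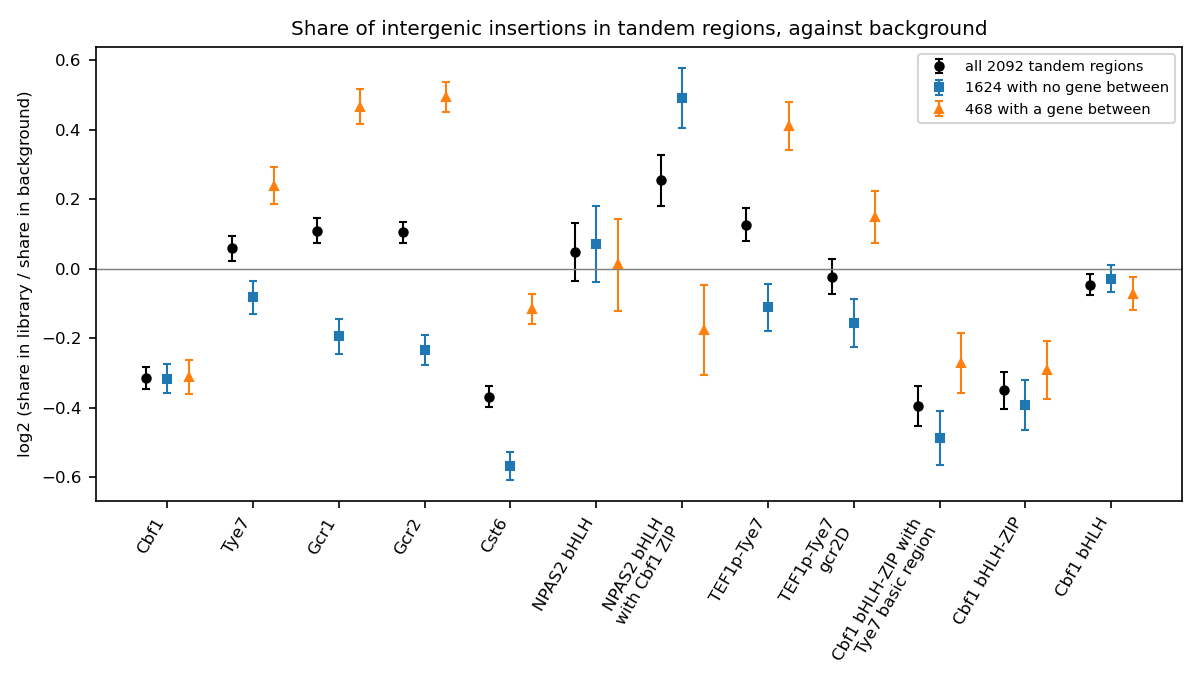
Log2 ratio of the tandem share of a library (of its intergenic insertions) to that of its background set, for all 2092 regions, the 1624 with no annotated gene between and the 468 with a gene between. Points are single libraries and bars are exact 95% intervals of counting error. Gcr1, Gcr2, Tye7 and TEF1p-Tye7 are above 0 with a gene between and below 0 without, while Cbf1 and its zipper forms are below 0 in all 3.

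The other classes were counted in the same way. In divergent regions the ratio to background was 1.38 for Cbf1, 1.47 for Cbf1 bHLH-ZIP, 1.51 for the basic-region form and 1.28 for Cst6, against 0.834 for Gcr1 and 0.854 for TEF1p-Tye7. Over the 12 libraries, log2 of the tandem ratio minus log2 of the divergent ratio had a mean of -0.20 (SD 0.51). It was below 0 in 5 libraries and above 0 in 7, and the sign-flip permutation test gave p = 0.202, adjusted over the 3 such tests 0.202. Without the 10 fullest regions of each library the mean was -0.14 (permutation p = 0.041). Over regions with no gene between in all classes, 9 libraries were below 0 and 3 above, with a mean of -0.42 (SD 0.67, permutation p = 0.0684). Tandem regions stood above convergent regions in 11 of 12 libraries, by a mean log2 difference of 0.84 (SD 0.85), with an adjusted permutation p of 0.00732. The exception was Cst6, at -0.66, where 10 regions held 79.7% of the convergent insertions. With no gene between, Cst6 stood at 0.41 and all 12 libraries were above 0 (mean 1.12, SD 0.98). Over the 5 full-length factors alone the mean was 0.48 (exact permutation p = 0.188). The libraries share factors and background sets, and each test treats them as 12 separate values. The smallest p that these 4096 sign patterns allow is 0.000488.

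Among pairs of libraries, the tandem share of Tye7 was 1.29 times that of Cbf1 (1.26 to 1.33), and every run of Tye7 lay above every run of Cbf1. Cbf1 bHLH exceeded Cbf1 bHLH-ZIP by a ratio of 1.23 (1.19 to 1.28), whereas NPAS2 bHLH with the zipper exceeded NPAS2 bHLH without it by 1.15 (1.07 to 1.24). TEF1p-Tye7 without GCR2 was lower than with it, at 0.902 (0.862 to 0.944). Gcr1 and Gcr2 had the same share within counting error, with a ratio of 1.00 (0.976 to 1.03). The basic-region form was at 0.970 of Cbf1 bHLH-ZIP (0.920 to 1.02).

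Within the 1624 regions with no gene between, insertions lay away from the start of the served gene. The side nearer the served gene, from its start to the middle of the region, held a mean of 45.6% of the insertions (SD 3.96, n = 12 libraries, range 38.9% in Cbf1 bHLH-ZIP to 54.0% in TEF1p-Tye7). It was above 50% in 1 of 12 libraries, and the sign-flip permutation test against 50% gave an adjusted p of 0.00732. No positions are given for the background set, so a tendency of Ty5 itself to avoid one side was not tested. In the 1059 regions of 300 to 1000 bp the profile rose from the served gene to the middle and fell again before the neighbour. With each region cut into 10 equal bins, the bin that touches the served gene held 0.76% (Cbf1 bHLH-ZIP) to 4.81% (Gcr1) of the insertions, and the fullest bin was bin 5, 6 or 7 in every library. In Cbf1 the first bin held 1.90% and bin 6 held 19.1%. The median distance from the served gene was 276 bp (Cbf1 bHLH) to 398 bp (NPAS2 bHLH with Cbf1 ZIP). Insertions were pooled over regions, so full regions weigh most. ATG41-RPL36B and CIS3-FAR1 held 557 and 263 of the 1053 insertions behind the 398 bp.

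**Figure D2:**
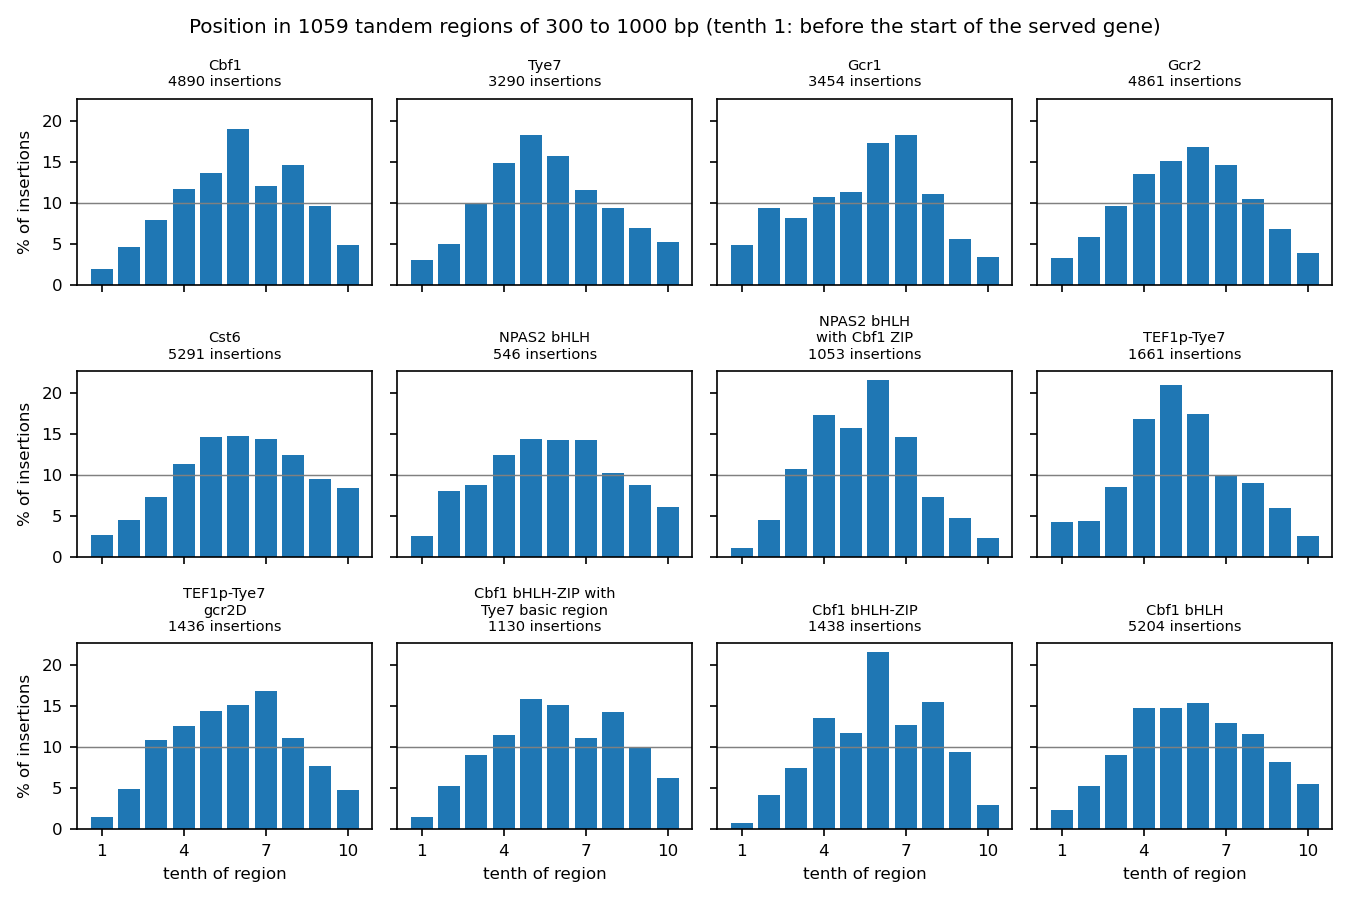
Share of insertions in each of 10 equal bins of the 1059 tandem regions of 300 to 1000 bp with no gene between, per library. The horizontal axis runs from the start of the served gene (bin 1) to the end of the neighbour (bin 10), the vertical axis is the percentage of the insertions in these regions, and the grey line marks an even spread of 10%. Bin 1 holds at most 4.81% in any library, and the fullest bin is bin 5, 6 or 7.

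Single regions were tested with the two-sided Fisher's exact test against the background set, with Benjamini-Hochberg adjustment. The tests covered all regions with at least 10 insertions in library and background together. A region with few background insertions was thus tested only where the library filled it, which can raise the share called in a gene list. Calls needed an adjusted p below 0.05 and a share at least 2 times higher or lower, after 1 insertion was added to both counts. In the Cbf1 library 73 of 1144 tandem regions tested were higher than background, where 7.37% of all regions tested were. In Cst6 66 of 957 were higher (7.81% of all regions). Gcr1 had 34 of 919 (3.4%), Gcr2 34 of 980 (3.1%), Tye7 10 of 1170 (0.767%), TEF1p-Tye7 15 of 1060 (1.22%) and TEF1p-Tye7 gcr2D 21 of 1072 (2.33%). Cbf1 bHLH-ZIP had 34 of 1061 (4.2%), the basic-region form 32 of 1053 (3.44%) and Cbf1 bHLH 26 of 1290 (2.75%). NPAS2 bHLH had 1 of 1044 (0.0496%) and, with the Cbf1 zipper, 24 of 1023 (2.66%). The tandem shares thus lay near those of all regions, and a deeper library can call more regions.

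Of the 2092 tandem regions, 201 were higher than background in at least 1 library, 9.61% beside 9.05% of all 4532 regions. They were 114 of the 1624 with no gene between (7.02%) and 87 of the longer 468 with a gene between (18.6%). Most were called in few libraries: 118 were called in 1 library, 35 in 2 and 24 in 3, and PEP8-TDH1 alone was called in 7. In Cbf1 341 of 1144 tandem regions tested were lower, where 31.7% of all regions tested were. Cst6 had 485 of 957 lower (52.5% of all regions), Gcr1 46 of 919 (5.4%) and Gcr2 56 of 980 (7.04%). Cbf1 bHLH-ZIP had 19 of 1061 (2.49%), the basic-region form 4 of 1053 (0.492%) and Cbf1 bHLH 3 of 1290 (0.208%). By Fisher's exact test no tandem region was lower in TEF1p-Tye7 (0.0489% of all regions), TEF1p-Tye7 gcr2D (0.0486%), Tye7 or either NPAS2 library, where 56, 63, 66, 36 and 41 tandem regions passed an unadjusted p of 0.05 in either direction. Depth limits lower calls too: the NPAS2 libraries held 2415 and 2859 intergenic insertions, beside 66271 in their background set. With a median of 0 insertions per tandem region they could hardly reach a lower call. Their lack of lower calls therefore does not show a lack of depletion. A share must fall elsewhere when a few regions fill. When libraries were scaled to their insertions outside their 10 fullest regions, the median log2 ratio to background rose by 0.04 (NPAS2 bHLH) to 1.15 (NPAS2 bHLH with Cbf1 ZIP), and the lower calls became 151 in Cbf1, 316 in Cst6, 2 in Gcr1 and 8 in Gcr2. Regions with 0 insertions made up 14.9% (Cbf1 bHLH) to 90.4% (NPAS2 bHLH with Cbf1 ZIP) of the 2092, and 48 were empty in every library.

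**Figure D3:**
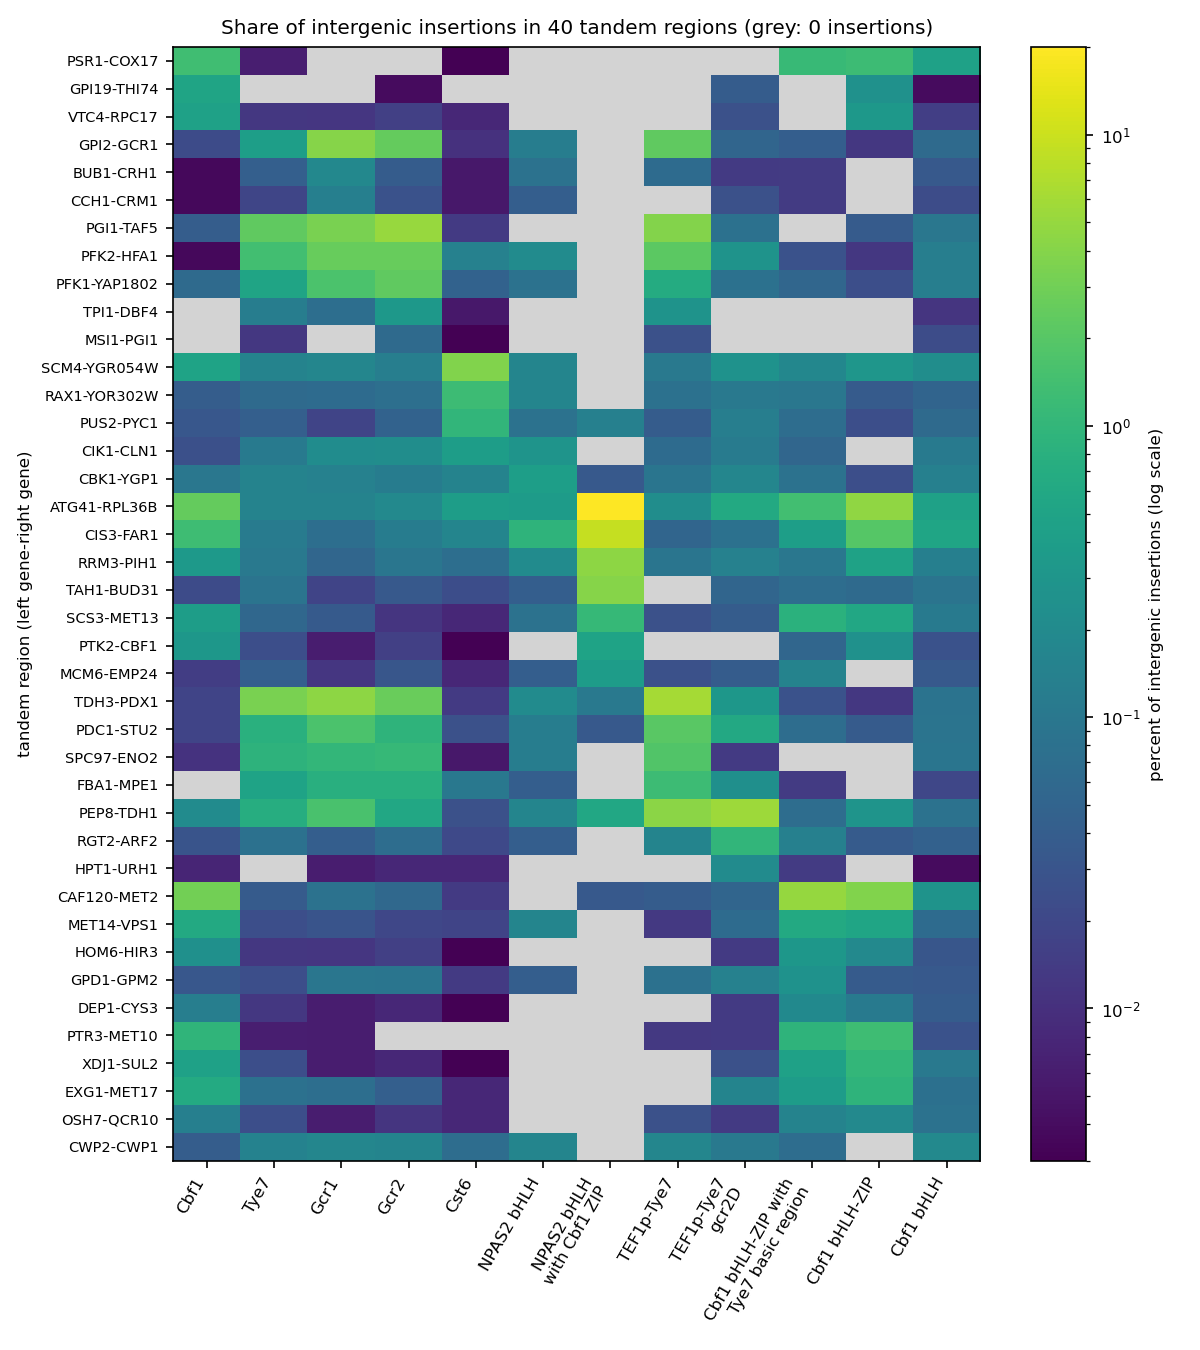
Share of intergenic insertions (colour, log scale, percent) in 40 named tandem regions, by library. Rows are grouped by the library with the highest share, and grey cells hold 0 insertions. Glycolytic regions fill the columns of Tye7, Gcr1, Gcr2 and TEF1p-Tye7, sulfur regions the columns of Cbf1 and its zipper forms, and ATG41-RPL36B is the brightest cell at 19.5%.

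Tye7 and Cbf1, both bHLH factors, were compared directly first. Of 346 tandem regions tested, 94 were higher in Tye7 and 64 in Cbf1, where 27% and 19.9% of all regions tested were, and the rescaling shift was -0.11 on the log2 scale. At the extremes stood PFK2-HFA1, with 221 insertions in Tye7 and 1 in Cbf1 (375-fold, 66.6 to 14873), and PSR1-COX17, with 1 in Tye7 and 369 in Cbf1 (218-fold, 38.8 to 8615). With positions within 5 bp merged, which thins densely filled regions most, 13 were higher in Tye7 and 35 in Cbf1.

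Tandem regions that serve glycolytic genes were filled by Tye7, Gcr1 and Gcr2. The list of glycolysis and ethanol fermentation genes was served by 11 tandem regions, which held 0.847% of the background insertions for the 9 libraries. They held 10.7% of the Tye7 insertions (12.6 times background, 11.5 to 13.9), 17.2% of Gcr1 (19.8 times, 17.9 to 21.9), 16.5% of Gcr2 (19.0 times, 17.2 to 20.9) and 22.7% of TEF1p-Tye7 (26.9 times, 24.4 to 29.6). Of the regions tested, 8 of 11 were higher in Tye7, 8 of 11 in Gcr1, 9 of 11 in Gcr2 and 9 of 10 in TEF1p-Tye7, and none was lower. Of all regions tested 0.767%, 3.4%, 3.1% and 1.22% were higher in these libraries. The median log2 ratio of the 11 was 2.90 in Tye7 where that of all regions tested was -0.16, and 4.10 against -0.89 in Gcr1. In Cbf1 7 of 11 were lower and in Cst6 8 of 11, where 31.7% and 52.5% of all regions tested were. The list median was -1.83 in Cbf1 beside -1.30 for all regions, and -1.67 in Cst6 beside -1.68. The 13 regions after the end of a list gene stood at 0.773 times background in Tye7, 0.461 in Gcr1 and 1.28 in Gcr2 (0.949 to 1.71). In Gcr2 only 7 of them were tested, and 3 were higher, beside 3.1% of all regions. The filter of 10 insertions favours regions that are full in the library.

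TDH3-PDX1, before the start of the main glyceraldehyde-3-phosphate dehydrogenase gene (chromosome 7, 883815 to 884514, 700 bp, no gene between), held 0.0125% to 6.01% of a library, with a median of 0.156%. It was highest in TEF1p-Tye7 (457 insertions, 78.0 times background, 58.3 to 106), then Gcr1 (4.51%), Tye7 (3.38%) and Gcr2 (2.72%). The remaining 8 libraries were at or below 0.316%. Tye7 exceeded Cbf1 184-fold (78.2 to 568; adjusted p = 8.36e-223, Fisher's exact test).

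PGI1-TAF5, before phosphoglucose isomerase (chromosome 2, 613895 to 616122), led the Gcr2 library with 5.13%, followed by TEF1p-Tye7 (3.97%), Gcr1 (3.39%) and Tye7 (2.31%). The other 8 libraries held at most 0.0973%, and 3 of them held no insertion. This region has 3 other annotated genes between. PFK2-HFA1, before a phosphofructokinase subunit (chromosome 13, 674765 to 677192, 1 gene between), held 1.38% in Tye7, 2.58% in Gcr1, 2.62% in Gcr2 and 2.18% in TEF1p-Tye7. PFK1-YAP1802, before the gene of its partner subunit and with 1 gene between, held 0.519% in Tye7, 1.64% in Gcr1, 2.32% in Gcr2 and 0.670% in TEF1p-Tye7.

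SPC97-ENO2, before an enolase gene and with 1 gene between, held 0.881% of Tye7, 1.02% of Gcr1, 1.09% of Gcr2 and 1.84% of TEF1p-Tye7. PDC1-STU2, before the main pyruvate decarboxylase gene, held 0.794%, 1.63%, 0.918% and 2.12% in the same order. FBA1-MPE1, before aldolase, held 0.50%, 0.762%, 0.776% and 1.26%. In all 3 the TEF1p-Tye7 library was the fullest, and Cbf1 held 0.0111%, 0.0184% and no insertion. TPI1-DBF4, before triose phosphate isomerase and with 1 gene between, was called in Gcr2 (0.323%) and TEF1p-Tye7 (0.276%) but not in Tye7 (0.125%) or Gcr1 (0.0720%). The regions before PDC5 and PYK2, the minor pyruvate decarboxylase and pyruvate kinase genes, were not called in any of these 4 libraries.

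With the TEF1 promoter in place of its own, Tye7 had 6 of 212 tandem regions higher and none lower by Fisher's exact test (30 passed an unadjusted p of 0.05 in either direction), where 1.97% of all regions tested were higher and 0.656% lower. The Tye7 library came from tye7D cells and the TEF1p-Tye7 library from cells with TYE7, so promoter and host genotype cannot be told apart. Rescaling outside the 10 fullest regions moved the median by 0.53 on the log2 scale and gave 14 higher. PEP8-TDH1, before another glyceraldehyde-3-phosphate dehydrogenase gene, rose from 0.731% to 4.39% (6.0-fold, 4.85 to 7.47; adjusted p = 4.49e-73, Fisher's exact test). GPI2-GCR1, before the gene of the activator Gcr1, rose from 0.419% to 2.34% (5.59-fold, 4.20 to 7.51). PDC1-STU2, FBA1-MPE1 and SPC97-ENO2 rose 2.67-fold, 2.52-fold and 2.09-fold, the last without a call once positions were merged.

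Most of these regions were lower in TEF1p-Tye7 cells that lacked GCR2. Of 113 tandem regions tested, 10 were lower and 10 higher, where 5.93% of all regions tested were lower and 11.9% higher. The rescaling shift here was -0.53 and left 4 higher. PGI1-TAF5 fell from 302 insertions to 6 (50.2-fold lower, 22.8 to 138), and GPI2-GCR1 from 178 to 4 (44.4-fold, 17.0 to 165). SPC97-ENO2 fell from 140 to 1, 140-fold lower (24.7 to 5556). TDH3-PDX1 fell 19.0-fold (12.6 to 30.0; adjusted p = 3.83e-105, Fisher's exact test), PFK2-HFA1 7.89-fold, FBA1-MPE1 5.32-fold and PDC1-STU2 3.49-fold. With positions within 5 bp merged, TDH3-PDX1 and FBA1-MPE1 lost their call, at -0.96 and -1.49 on the log2 scale. TDH3-PDX1, FBA1-MPE1 and PDC1-STU2 were still 4.11, 3.57 and 6.08 times the background.

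PEP8-TDH1 (chromosome 10, 337032 to 338266, 1 gene between) did not follow them. It held 5.44% of the gcr2D library (413 insertions, 45.6 times background, 35.8 to 58.8), beside 4.39% with GCR2, and was the fullest tandem region there. The glycolytic regions together held 7.11% of the gcr2D insertions (8.40 times background) and 1.67% (2.30 times, 1.88 to 2.80) without PEP8-TDH1. Across all 12 libraries this region ranged from 0.0265% (Cst6) over a median of 0.441% to that 5.44%, and it was also called in NPAS2 bHLH with Cbf1 ZIP (0.595%) and in Cbf1 bHLH-ZIP (0.286%). RGT2-ARF2 was also higher without GCR2, with 1.00% against 0.158% (6.35-fold, 3.43 to 12.8). It lies next to the glucose sensor gene RGT2 but serves ARF2, an ADP-ribosylation factor. HPT1-URH1, before uridine nucleosidase, held 16 insertions without GCR2 and 0 with it, at least 5.35-fold higher against a floor of 3 insertions. With positions merged no tandem region was called higher without GCR2 by Fisher's exact test, and RGT2-ARF2 stood at a log2 ratio of 0.092.

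**Figure D4:**
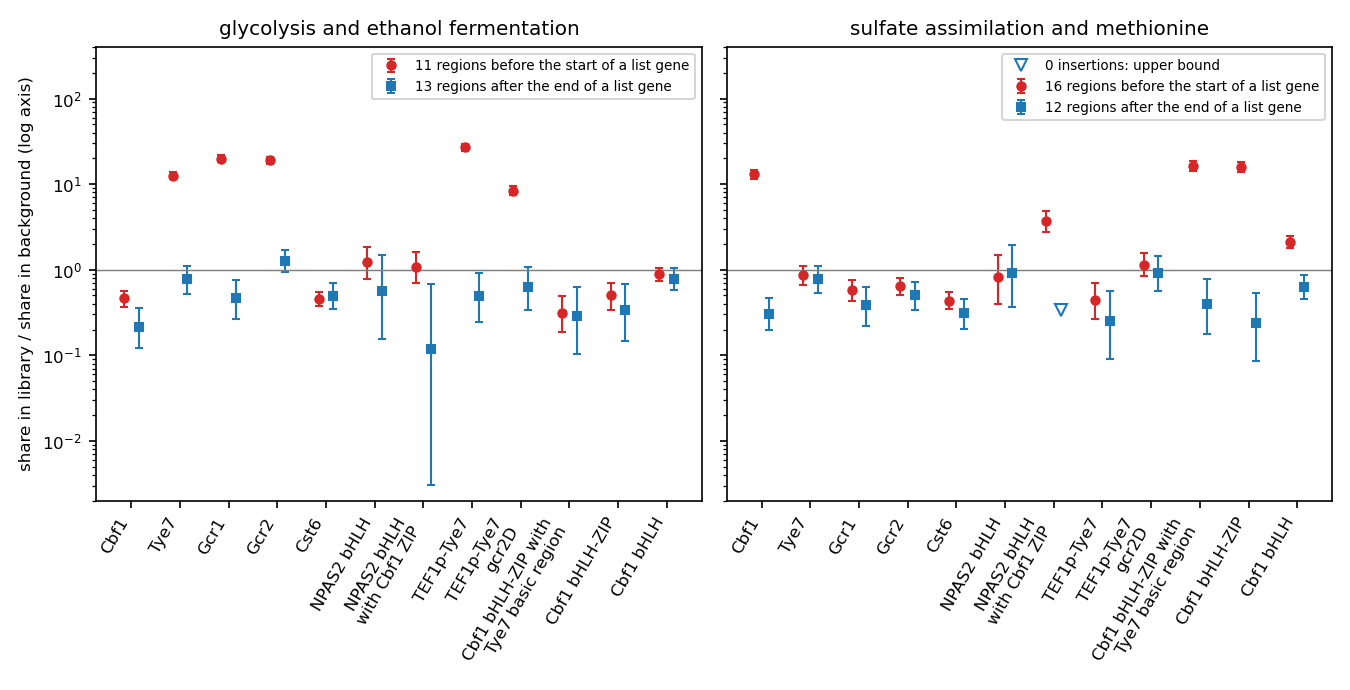
Ratio of library share to background share of intergenic insertions (log axis) in tandem regions before the start (circles) and after the end (squares) of the genes of 2 lists. Bars are exact 95% intervals of counting error, and the open triangle is an upper bound for 0 insertions. Starts of glycolytic genes stand at 8.40 to 26.9 in the 5 libraries of Tye7, Gcr1 and Gcr2, starts of sulfur genes at 13 to 16.3 in Cbf1 and its zipper forms, and regions after gene ends are at 1.28 or below.

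Sulfur genes showed the same contrast of gene start and gene end for Cbf1. The list of sulfate assimilation and methionine genes was served by 16 tandem regions. They held 7.29% of the Cbf1 insertions (13 times background, 11.6 to 14.6), 8.89% of Cbf1 bHLH-ZIP (15.8 times) and 9.17% of the form with the Tye7 basic region (16.3 times). Without the zipper they held 1.19% (2.12 times, 1.81 to 2.47). Higher calls numbered 11 of 15 tested in Cbf1, 9 of 14 in bHLH-ZIP, 8 of 14 in the basic-region form and 4 of 14 in Cbf1 bHLH, where 7.37%, 4.2%, 3.44% and 2.75% of all regions tested were higher. The median log2 ratio was 3.17 in Cbf1, where that of all regions tested was -1.30. Full-length Tye7, which also binds E-boxes, had 0 of 12 called higher, where 0.767% of all regions tested were, and stood at 0.868 times the background (0.671 to 1.11). Of the 12 regions after the end of a list gene, 4 to 8 were tested per library, and none was called higher. Of all regions tested, 0.0496% (NPAS2 bHLH) to 7.81% (Cst6) were higher, so no call among so few lies near that share.

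CAF120-MET2, before homoserine O-acetyltransferase (chromosome 14, 116453 to 117349, 1 gene between), held 3.04% of Cbf1, 3.82% of Cbf1 bHLH-ZIP and 5.05% of the basic-region form. The last is 95.5 times the background (67.5 to 139). Cbf1 bHLH held 0.273%, and the other 8 libraries held at most 0.0840%. Without this region the list stood at 8.36 times the background in Cbf1.

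PTR3-MET10, before a sulfite reductase subunit (chromosome 6, 212961 to 213300, 340 bp), held 0.969%, 1.28% and 0.926% in Cbf1, bHLH-ZIP and the basic-region form. Every other library held at most 0.0273%, and 4 held no insertion. EXG1-MET17, before O-acetylhomoserine sulfhydrylase and with 2 genes between, 1 of them a tRNA gene, held 0.648%, 0.934% and 0.387%. BY4741 lacks MET17 by its standard genotype and BY4742 does not, so here the strain cannot be told apart from the basic region. MET14-VPS1, before adenylylsulfate kinase, held 0.623%, 0.523% and 0.636%, and XDJ1-SUL2, before a sulfate permease and with 1 gene between, 0.468%, 1.02% and 0.470%. By its gene names, MET14-VPS1 runs from the left to the right arm of chromosome 11 and so spans the centromere. In Cbf1 the median distance from MET14 was 277 bp, in a region of 1224 bp. A part of the centromere in these insertions was not tested. SCS3-MET13, before methylenetetrahydrofolate reductase, held 0.402%, 0.598% and 0.830%, and was the only sulfur region with a higher call in both Cbf1 bHLH (0.113%) and NPAS2 bHLH with Cbf1 ZIP (1.08%). HOM6-HIR3 and DEP1-CYS3, before homoserine dehydrogenase and cystathionine gamma-lyase, were called in the same 3 libraries at 0.112% to 0.318%.

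The zipper was compared within the Cbf1 domain. Between Cbf1 bHLH and Cbf1 bHLH-ZIP, 22 of 362 tandem regions tested were lower without the zipper and 28 were higher, where 7.06% and 8.67% of all regions tested were. The rescaling shift was -0.63 on the log2 scale, and after it 1 region was higher. PTR3-MET10 was 47.1-fold higher with the zipper (22.1 to 120; adjusted p = 1.94e-53, Fisher's exact test), VTC4-RPC17 20.8-fold, CAF120-MET2 14.0-fold (10.8 to 18.5) and EXG1-MET17 12-fold. PTR3-MET10 lost its call with positions merged, and VTC4-RPC17 with insertions of at least 5 reads. PSR1-COX17 was 2.76-fold higher with the zipper (2.10 to 3.64) and CIS3-FAR1 3.64-fold (2.88 to 4.61). In the other direction CWP2-CWP1, before a cell wall protein gene, held 49 insertions without the zipper and 0 with it (at least 5.10-fold), and CIK1-CLN1 29 and 0 (at least 3.02-fold). CWP2-CWP1 was higher than background in no library and lower in 3. Its 0.191% in Cbf1 bHLH stood beside a median of 0.128% over the libraries. CIK1-CLN1 lost its call under rescaling and with positions merged. PSR1-COX17 still held 0.455% of Cbf1 bHLH, 37.7 times the background (18.5 to 89.4), and had the largest fold of the regions named in that library.

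The Tye7 basic region in place of that of Cbf1 left 6 of 87 tandem regions higher and 12 lower than in Cbf1 bHLH-ZIP, where 8.88% and 13.1% of all regions tested were. GPI19-THI74, before the gene of a putative mitochondrial transporter that thiamine represses, held 21 insertions in Cbf1 bHLH-ZIP and 0 in the basic-region form, at least 6.31-fold. VTC4-RPC17, before the polyphosphate polymerase of the vacuole, held 26 and 0, at least 7.81-fold. Both lost their call with insertions of at least 5 reads. CIS3-FAR1 was 4.72-fold lower (3.18 to 7.22) and ATG41-RPL36B 3.28-fold lower (2.63 to 4.12). With positions merged CIS3-FAR1 lost its call, at -0.15 on the log2 scale, and ATG41-RPL36B turned to 0.43. In the other direction GPD1-GPM2 was 7.03-fold higher (2.07 to 37.1; 19 insertions against 3; adjusted p = 0.00205, Fisher's exact test), a call lost with positions merged or with at least 5 reads. The glycolytic regions stood at 0.310 times background (0.185 to 0.489) in the basic-region form, with 0 of 9 tested higher where 3.44% of all regions were. In Cbf1 bHLH-ZIP they stood at 0.50 times (0.343 to 0.707).

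Some Cbf1 regions fall outside the sulfur list. PSR1-COX17, before a plasma membrane phosphatase of the sodium stress response (chromosome 12, 130612 to 131204, 593 bp), held 1.36% of Cbf1 (113 times background, 56.6 to 263), 1.26% of bHLH-ZIP and 1.13% of the basic-region form. It held at most 0.00625% outside the 4 Cbf1 libraries and no insertion in 6. GPI19-THI74 held 0.516% of Cbf1 and 0.262% of bHLH-ZIP, and at most 3 insertions in any other library. OSH7-QCR10, before a subunit of respiratory complex III, was called in all 4 Cbf1 libraries, from 0.0818% (Cbf1 bHLH) to 0.187% (bHLH-ZIP). PTK2-CBF1, before CBF1 itself, held 0.321% of Cbf1 and 0.262% of bHLH-ZIP, and 0.490% of NPAS2 bHLH with Cbf1 ZIP. CBF1 is deleted in all of these strains. Whether any of these insertions lay in plasmid sequence was not tested.

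In the phosphate regulon, 2 of 5 served regions tested were higher in Cbf1, beside 7.37% of all regions. They were VTC4-RPC17 (0.457%) and RNR1-VTC1 (0.0774%, 1 gene between), both before subunits of the vacuolar polyphosphate complex. The 7 served regions together were at 4.98 times background in Cbf1 (3.78 to 6.60) and at 1.43 (0.929 to 2.19) without VTC4-RPC17. Ribosomal protein genes were low in Cbf1: their 58 served tandem regions took 0.280% of its insertions, 0.157 times background, with 27 of 42 tested lower and none higher, beside 31.7% of all regions lower. In Cst6 21 of 34 were lower, beside 52.5% of all regions. Regions before the citric acid cycle genes had 1 higher call over all libraries, CIT1-ATO2 in Cbf1 (0.225%), where 7.37% of all regions tested were higher. The galactose genes, needed for growth on that sugar, had no higher call among their 6 served regions in any library, where all 6 were tested. Of all regions tested, 0.0496% (NPAS2 bHLH) to 7.81% (Cst6) were higher, so no call among 6 lies near that share. The 21 regions before respiratory chain genes stood at 0.169 to 1.01 times background over the libraries, with 2 of 16 tested higher and 4 lower in Cbf1, beside 7.37% and 31.7% of all regions. The 12 before phospholipid synthesis genes stood at 0.198 to 1.31 times. The 8 before the genes deleted or carried on plasmids stood at 13.4 times background in Gcr1, and at 0.793 without GPI2-GCR1. That region held 665 insertions in Gcr1 (3.99%) and 640 in Gcr2 (2.52%). The Gcr1 strain carried its factor on a plasmid, and whether any of these insertions lay in plasmid sequence was not tested.

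NPAS2 bHLH with the Cbf1 zipper held the largest share of any library in a single tandem region. Of 27 tandem regions tested, 17 were higher and 1 lower, where 59.7% and 4.84% of all regions tested were, and the rescaling shift was 1.10 on the log2 scale. Testing needed at least 10 insertions in the pair, and NPAS2 bHLH held at most 22 in a tandem region, with a median of 0. The filter thus favours regions full in the library with the zipper, and the share called higher cannot be read apart from it. ATG41-RPL36B, before a gene of autophagy (chromosome 16, 74719 to 75699, 981 bp, no gene between), held 0.156% to 19.5% of a library with a median of 0.434%. The 19.5% were 557 insertions at 433 distinct positions of NPAS2 bHLH with Cbf1 ZIP, 101 times the background (83.1 to 123). NPAS2 bHLH alone held 9 insertions (0.373%), a difference of 52.3-fold (27.3 to 115; adjusted p = 1.92e-142, Fisher's exact test). The next libraries were Cbf1 bHLH-ZIP (4.62%, 23.9 times background), Cbf1 (2.52%) and the basic-region form (1.41%), so the 4 libraries with a Cbf1 zipper were the 4 highest. The region was called in 6 libraries, also in Cbf1 bHLH (119 insertions) and TEF1p-Tye7 gcr2D (48 insertions, 0.632%), which lack that zipper. In gcr2D it was 2.83-fold higher than in TEF1p-Tye7 (1.60 to 5.25), with overlapping runs.

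CIS3-FAR1, before a cell wall protein gene (chromosome 10, 122944 to 123832, 889 bp), was second, with 9.20% of NPAS2 bHLH with Cbf1 ZIP (74.3 times background, 57.8 to 96.5). It held 1.96% of Cbf1 bHLH-ZIP, 1.30% of Cbf1, 0.537% of Cbf1 bHLH and 0.415% of the basic-region form. It was also the only region of any class called in NPAS2 bHLH without the zipper, with 22 insertions, 0.911% and 7.36 times background (4.38 to 11.9). Its share was 10.1-fold higher in the library with the zipper (6.53 to 16.4). It was thus called in the 4 Cbf1 libraries and both NPAS2 libraries, and in none of the other 6.

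The regions that followed were less widely shared. RRM3-PIH1, before a DNA helicase gene and with 2 genes between, held 4.44% of NPAS2 bHLH with Cbf1 ZIP and at most 0.473% elsewhere. TAH1-BUD31, before a splicing factor gene (2 genes between, 1 of them a tRNA gene), held 4.06%, while every other library held at most 0.0895%. The difference from NPAS2 bHLH was 116 insertions against 1, 98.0-fold (17.2 to 3903). STR3-MND1, before a cystathionine beta-lyase gene, held 0.804%, and was not called in any Cbf1 library.

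The Cst6 library was led by 3 tandem regions that were far lower elsewhere. SCM4-YGR054W (chromosome 7, 591881 to 596697, 4817 bp, 3 genes between) held 3.74% of Cst6, 1414 insertions and 22.9 times background (18.4 to 28.7). The next library was Cbf1 at 0.501%. RAX1-YOR302W, before the leader peptide of the carbamoyl phosphate synthetase gene CPA1 (chromosome 15, 882270 to 882763, 494 bp), held 1.24% (13.6 times, 10.1 to 18.7) and at most 0.166% elsewhere. PUS2-PYC1, before pyruvate carboxylase (chromosome 7, 384769 to 385199, 431 bp), held 0.971% (16.3 times, 11.4 to 24.2) and at most 0.140% elsewhere. CIK1-CLN1, before a G1 cyclin, was called in Cst6 at 0.40% and at lower shares in Gcr1 (0.216%) and Gcr2 (0.225%).

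Gcr1 and Gcr2 act together at glycolytic genes, and their tandem regions were compared directly. Of 304 tested, 13 were higher in Gcr1 and 3 in Gcr2, where 3.64% and 1.52% of all regions tested were, and the rescaling shift was 0.12 on the log2 scale. Higher in Gcr2 were TPI1-DBF4 (4.49-fold, 2.43 to 9.03) and MSI1-PGI1 (16 insertions against 0, at least 3.50-fold), a region that follows the end of PGI1. Among the 13 higher in Gcr1 was PEP8-TDH1 (1.58% against 0.595%, 2.66-fold, 2.17 to 3.28). The other glycolytic regions were not called in Gcr1's favour. With positions merged PEP8-TDH1, TPI1-DBF4 and MSI1-PGI1 lost their call.

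Of those 13 regions, 10 held a tRNA gene between the named genes, of 47 such regions tested, and 3 only a protein-coding gene, of 92 tested. None was among the 153 gene-free tandem regions tested, beside 3.64% higher of all regions. This split was made after the values were seen. GAS2-RPL26A held 1.07% of Gcr1 against 0.296% of Gcr2 (3.62-fold), RHB1-FEN2 0.750% against 0.189% (3.97-fold), and BUB1-CRH1 0.180% against 0.0394% (4.57-fold, 2.17 to 10.5). Ratios ran from 2.10 to 4.79 and the largest adjusted p was 0.00164 (Fisher's exact test). In 6 of the 13 every run of Gcr1 was above every run of Gcr2. Of these, RHB1-FEN2, BUB1-CRH1 and KRE6-GPH1 hold a tRNA gene, and PEP8-TDH1, TRS23-VHS1 and HMS1-EXO1 only a protein-coding gene. In the other tRNA regions the runs overlapped. GAS2-RPL26A held 0.646% in a Gcr1 run and 0.684% in a Gcr2 run. With positions within 5 bp merged, none of the 13 was called.

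Over the 90 tandem regions with a tRNA gene, Gcr1 placed 7.65% of its insertions against a background of 4.22% (1.81 times, 1.69 to 1.94), and 15 of 81 tested were higher, where 3.4% of all regions were. Gcr2 placed 4.41% there (1.05 times, 0.972 to 1.12), with 10 of 82 higher where 3.1% of all regions were. Of the other 10 libraries, NPAS2 bHLH with Cbf1 ZIP was at 1.32 and the rest at 0.507 (Cst6) to 0.977 (NPAS2 bHLH). TAH1-BUD31 held 116 of the 162 insertions behind the 1.32, and the other 89 regions stood at 0.385 (0.281 to 0.515). Without GAS2-RPL26A, its fullest, Gcr1 stood at 1.59 (1.48 to 1.71). The Gcr1 runs were unequal, at 12.1%, 9.42%, 5.06% and 3.97%, and overlapped those of Gcr2, at 3.39%, 5.95% and 5.16%. Regions with only a protein-coding gene between stood at 1.66 times background in TEF1p-Tye7 and in Gcr2, 1.39 in Gcr1, 1.34 in Tye7, 1.26 in TEF1p-Tye7 gcr2D and 1.11 in Cst6, each with an interval above 1. In Cst6, SCM4-YGR054W alone held 1414 of the 5462 insertions of this kind. Without the glycolytic regions, which left 329, the same kind stood at 0.891 in TEF1p-Tye7, 0.904 in Gcr2, 0.751 in Gcr1 and 0.916 in TEF1p-Tye7 gcr2D, each with an interval below 1, and at 1.03 in Tye7 (0.981 to 1.08). Regions with a snoRNA gene stood at 0.319 to 1.06.

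**Figure D5:**
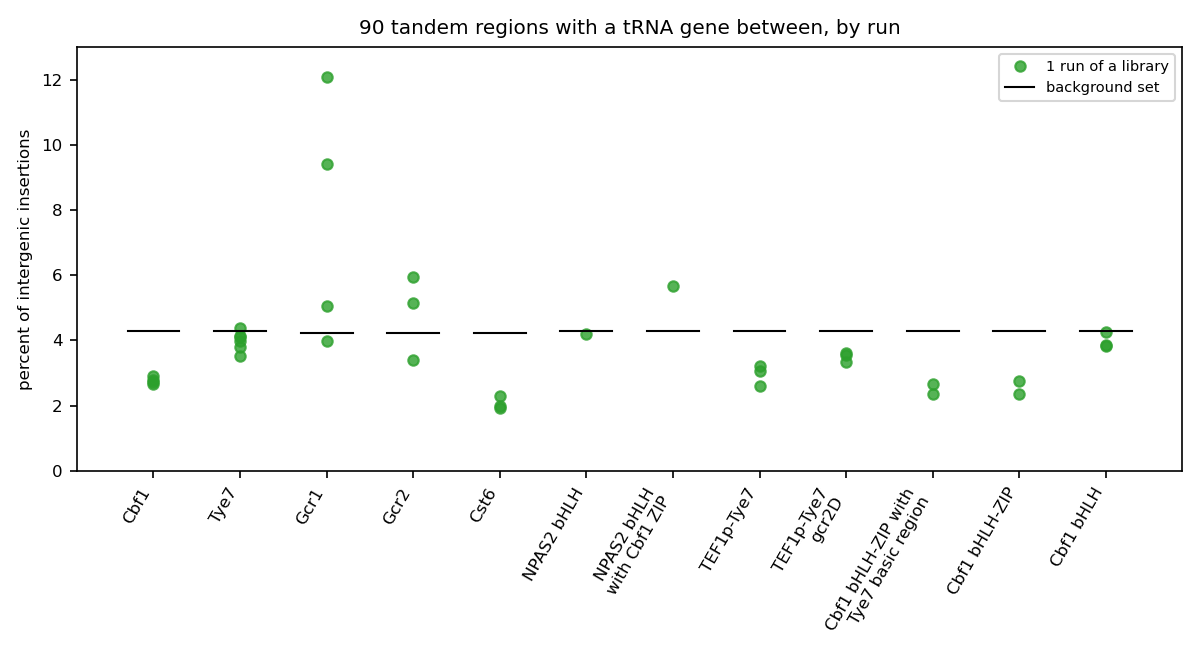
Share of intergenic insertions in the 90 tandem regions with a tRNA gene between, 1 point for each run of a library, with the background share as a bar. The Gcr1 runs spread from 3.97% to 12.1% while the Gcr2 runs lie between 3.39% and 5.95%.

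Positions inside a region were compared where no gene lay between. In PTR3-MET10 the median distance from MET10 was 263 bp in Cbf1, 265 bp in bHLH-ZIP and 276 bp in the basic-region form. In PSR1-COX17 it was 431 to 440 bp over the 4 Cbf1 libraries. The forms spread more in SCS3-MET13, at 295 bp in Cbf1, 271 bp in Cbf1 bHLH, 240.5 bp in bHLH-ZIP and 200 bp in the basic-region form. CIS3-FAR1 had medians of 479 to 506.5 bp in the libraries of Cbf1 and NPAS2 forms, with or without the zipper, while the 31 insertions of Gcr2 were centred on 325 bp and the 63 of Cst6 on 674 bp.

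In PDC1-STU2 the median distance from PDC1 was 365 bp for Tye7 (quartiles 260.5 and 666 bp), 358 bp for TEF1p-Tye7 (278 and 673 bp), 671 bp for Gcr1 (531.5 and 715 bp) and 663 bp for Gcr2 (382 and 715 bp). The interquartile ranges of all 4 overlapped. In FBA1-MPE1 it was 308 bp for Tye7, 305.5 bp for TEF1p-Tye7, 334 bp for Gcr2 and 399 bp for Gcr1, while the 38 insertions of Cst6 lay at 607 bp. TDH3-PDX1 showed a smaller spread, 322 bp in TEF1p-Tye7 and 333 bp in Tye7 against 350 bp in Gcr2 and 395.5 bp in Gcr1. In GPI2-GCR1 the order of the medians differed, with Gcr1 nearest to the served gene at 440 bp (quartiles 115 and 586 bp). TEF1p-Tye7 was at 506.5 bp (85 and 688.75 bp), Gcr2 at 533 bp (280 and 617 bp) and Tye7 at 557 bp (103.5 and 612.5 bp). These interquartile ranges overlapped widely, so the medians set no clear order. These medians have no replicate check, and the differences between them were not tested.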

How the data were processed

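Insertions were mapped in genomic DNA from 12 libraries. The authors deposited, per library, a list of insertions with a read count and a table of intergenic regions with counts of insertions in library and background. Those deposited tables also hold the fraction of all insertions, the ratio (EB) of both fractions, a scaled signal of insertions (TPH), its log2, and p-values (hypergeometric and Poisson). The counts were used, and the authors' Poisson p-value as an alternative. The submitters' processing notes name Novoalign. No source used here states a genome build. Insertions counted from the lists equalled the region tables in 54384 of 54384 values. Of 4657 gene identifiers 4656 were matched in R64. Shares, exact intervals, Fisher's exact tests with Benjamini-Hochberg adjustment and sign-flip permutations were computed with SciPy 1.17.1, NumPy 2.4.6 and pandas 2.3.3 under Python 3.11.15, and tested on simulated counts. With 1 library a group there is no replicate error, and p-values measure counting error between libraries. A fold against 0 insertions is a bound at 3. The regions named were the 3 fullest called higher per library, the 2 of largest ratio per direction of the 7 comparisons, those called in at least 7 libraries, and served regions of the 9 gene lists called in at least 3. RNR1-VTC1, CIT1-ATO2, STR3-MND1, GAS2-RPL26A and RHB1-FEN2 were added after their values were seen. So were KRE6-GPH1, TRS23-VHS1, HMS1-EXO1 and the regions before PDC5 and PYK2. The tandem regions and gene lists were chosen with earlier results of these data known. Promoter sequences and motifs were not analysed here.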

Additional observations from a re-analysis of the deposited data

Results flagged for a closer look

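The tandem share differed in opposite directions between the libraries with and without the Cbf1 zipper on 2 bHLH domains. On the Cbf1 domain the log2 ratio of the share with the zipper to the share without it was -0.30, and on the NPAS2 domain it was 0.21. The NPAS2 value rests on few regions: it was -0.15 without the 10 fullest regions of each library and -0.060 with positions within 5 bp merged, where the Cbf1 value was -0.093 and -0.17. Each value rests on 1 library with and 1 without the zipper, and the difference between both effects was not tested.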

How the results depend on the processing

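No paired analysis was possible because each group has 1 library, and no replicate could be left out. Log2 ratios of the tandem share to background: widening regions by 200 bp gave Cbf1 -0.25, Cst6 -0.28, the basic-region form -0.33 and bHLH-ZIP -0.26. Keeping chromosome ends gave Gcr1 0.16. Leaving out the 10 fullest regions gave Cbf1 -0.15, Gcr1 0.070, Gcr2 0.053, Cst6 -0.089, the basic-region form -0.027 and bHLH-ZIP -0.13, and turned NPAS2 bHLH with Cbf1 ZIP to -0.11. Merging positions within 5 bp gave Cbf1 -0.071, Tye7 0.022, Gcr1 0.0030, Cst6 -0.050, TEF1p-Tye7 0.050, the basic-region form -0.090, bHLH-ZIP -0.18 and Cbf1 bHLH -0.013, and turned Gcr2 to -0.0040 and NPAS2 bHLH with Cbf1 ZIP to -0.014; background positions are not given and were not merged. Regions with no gene between, chosen after seeing the data, gave Cst6 -0.57, NPAS2 bHLH with Cbf1 ZIP 0.49, TEF1p-Tye7 gcr2D -0.16 and the basic-region form -0.49, and turned Tye7 to -0.082, Gcr1 to -0.19, Gcr2 to -0.23 and TEF1p-Tye7 to -0.11. Leaving out the glycolytic regions, also chosen after seeing the data, gave TEF1p-Tye7 gcr2D -0.14 and turned Tye7 to -0.11, Gcr1 to -0.19, Gcr2 to -0.18 and TEF1p-Tye7 to -0.31. Tandem minus divergent passed the threshold without the 10 fullest regions (-0.14, permutation p = 0.041), and tandem minus convergent missed it over the 5 full-length factors (0.48, exact permutation p = 0.188, where 5 libraries allow no p below 0.0625). With the authors' Poisson p-value higher calls were 18 in Tye7 and 60 in Cbf1 bHLH. Scaled outside the 10 fullest regions, lower calls were 151 in Cbf1, 2 in Gcr1, 8 in Gcr2, 316 in Cst6, 0 in the basic-region form, 1 in bHLH-ZIP and 1 in Cbf1 bHLH; between libraries 14 were higher in TEF1p-Tye7 than Tye7, 4 in gcr2D than TEF1p-Tye7, 1 in Cbf1 bHLH than bHLH-ZIP, and 0 lower in NPAS2 with than without the zipper. With positions merged, Tye7 against Cbf1 had 13 higher and 35 lower, gcr2D 0 higher, Gcr1 against Gcr2 0 and 0, Cbf1 bHLH 1 higher, the basic-region form 0 higher and 3 lower, and NPAS2 0 lower. With at least 5 reads per insertion, Tye7 against Cbf1 had 52 higher, gcr2D 5 higher, Gcr1 against Gcr2 6 and 1, Cbf1 bHLH 2 higher and 14 lower, the basic-region form 1 and 7, and NPAS2 5 higher and 0 lower. Against Cbf1 bHLH-ZIP, XDJ1-SUL2 and ATG41-RPL36B turned to log2 0.23 and 0.43 in the basic-region form when positions were merged; the cause of these changes was not tested. Of the other single regions, 27 lost their call with at least 5 reads, 38 with merged positions and 7 with scaling.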
